A study of Mus musculus with 5 samples.

Results

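The S100 genes described here are *S100a1*, *S100a4*, *S100a6*, *S100a8*, *S100a9*, *S100a10*, *S100a11*, *S100a13*, *S100a14* and *S100a16*, 10 of the 24421 genes counted by RNAseq. They were chosen by gene symbol, and the counts show that level also entered, since each of the 10 reached at least 10 counts in at least 3 of the 5 mice, and *S100a8* and *S100a9* did so only through the *Fnip1* null mice. Of the 8 other rows whose symbol begins with S100, *S100a2*, *S100a3*, *S100a5* and *S100z* had 0 counts in every mouse, *S100a7a* had 1 count in 1 mouse, and *S100b* had between 1 and 8 counts. *S100b* therefore lay just outside the level that the listed genes share, and *S100a8*, with 15, 37 and 49 counts in *Fnip1* null mice, just inside it. The remaining rows were *S100pbp*, a gene for an S100-binding protein, with 129 to 210 counts, and *S100g* (calbindin-D9k), the calcium carrier of the distal tubule. *S100g* had 6517 and 8674 counts in wildtype mice and 11697, 19500 and 14226 in *Fnip1* null mice (log2 fold change 0.94, adjusted p = 0.108).

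S100 proteins are small calcium-binding proteins built on a pair of EF-hands, which usually work as dimers. On binding calcium they open a surface that holds target proteins such as annexins, cytoskeletal proteins and enzymes. Some, above all the S100a8 and S100a9 heterodimer calprotectin of neutrophils and monocytes, are also released and act on the receptors RAGE and TLR4. In kidney, several S100 proteins are made by tubular epithelium, and others arrive with leukocytes or are made by stromal cells.

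Cortical kidney tissue was compared between 2 wildtype mice, 9055 and 9056, and 3 mice null for *Fnip1*, numbered 8637, 9210 and 9121, all on the C57BL6J background, with 1 library per mouse. The null allele came from ENU mutagenesis and is carried by every cell, so an S100 change in epithelium and one in leukocytes or stroma are both read, and neither has to begin in the kidney. The controls are labelled *Fnip1*+/+ and are called wildtype here, although the text of the study calls controls of the RNAseq *Fnip1*+/-. The labels give neither age nor sex.

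Gene counts per mouse ran from 15799114 to 19132145, so that 3 counts corresponded to between 0.158 and 0.186 normalized CPM, a count relative to the TMM-scaled library size. *Fnip1*, the targeted gene, was at 51.8 and 48.7 CPM in wildtype mice and at 21.0, 16.9 and 16 in the null mice (log2 fold change -1.48, adjusted p = 0.0313). Proximal tubule markers summed to 17200 and 19900 CPM in wildtype mice 9055 and 9056 and to 15800, 12500 and 11400 CPM in null mice 8637, 9210 and 9121, and *Slc14a2*, a marker of medulla, stood at 81.6 and 1.89 CPM in wildtype mice 9055 and 9056 and at 0.825, 16.1 and 99.7 in null mice 8637, 9210 and 9121. Null mouse 9121 alone had *Xist* at 314 CPM and no *Ddx3y*, *Kdm5d* or *Uty* counts, so it stands apart from the other 4 mice in sex-linked transcripts. Null mouse 8637 had a correlation of log2 CPM of 0.9869 with wildtype mouse 9055 and of 0.9861 with null mouse 9210, across genes. S100 values without these mice are given below.

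All 10 genes lie on chromosome 3 (GENCODE M21 on GRCm38, the build that UCSC names mm10). A first cluster of 185 kb holds 8 of them in the order *S100a1*, *S100a13*, *S100a14*, *S100a16*, *S100a4*, *S100a6*, *S100a8* and *S100a9*, from chr3:90511034 to 90695721. *S100a11* (chr3:93520488-93526287) and *S100a10* (chr3:93555080-93564643) lie 2820 kb further on. *S100a1* and *S100a13* are divergent neighbours, transcribed away from each other with 42 bases between them.

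The DNA just upstream of *S100a8*, *S100a9* and *S100a11* is shown. The first and second form 1 protein complex, lie 22596 bases apart and had large estimated changes. The third is a well expressed gene of the other cluster with a small estimated change. Of the 3, only *S100a9* passed the test described below. The sequences are RefSeq's for GRCm38.p6, given 5′ to 3′ on the strand of the gene and ending before any transcribed base in GENCODE. Capitals mark matches to the motifs named in the next paragraph.
*S100a8* (chr3:90668821-90668977, plus strand): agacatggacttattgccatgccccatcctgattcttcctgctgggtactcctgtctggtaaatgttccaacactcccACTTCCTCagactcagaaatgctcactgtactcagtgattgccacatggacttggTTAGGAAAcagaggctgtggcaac
*S100a9* (chr3:90695722-90695971, minus strand): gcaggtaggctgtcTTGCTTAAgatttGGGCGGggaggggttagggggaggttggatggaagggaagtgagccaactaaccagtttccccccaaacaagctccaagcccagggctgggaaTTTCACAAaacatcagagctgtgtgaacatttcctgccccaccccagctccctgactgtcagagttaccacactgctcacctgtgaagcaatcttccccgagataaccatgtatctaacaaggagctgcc
*S100a11* (chr3:93520246-93520487, plus strand): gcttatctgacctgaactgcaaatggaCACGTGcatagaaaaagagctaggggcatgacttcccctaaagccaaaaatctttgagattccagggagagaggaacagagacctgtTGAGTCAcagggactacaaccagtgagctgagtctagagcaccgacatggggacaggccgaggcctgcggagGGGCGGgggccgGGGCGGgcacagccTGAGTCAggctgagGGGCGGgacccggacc

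RefSeq entries were at hand for 8 of the 10 genes (9 starts, since *S100a16* has a pair). The 250 bases before each start were searched on both strands for 7 motifs. No entry was at hand for *S100a14* and *S100a10*, so whether their promoters hold any of these motifs is not known here. The C/EBP motif TTNNGNAA was found at *S100a8* (117 bases before the RefSeq start) and at *S100a9* (236 and 130 bases before it) and at no other of these starts, against 36.9% of 32841 mouse promoters. The PU.1 motif GAGGAAGT, held by 2.44% of promoters, was found at *S100a8* only, on the reverse strand, 172 bases before the start. C/EBP and PU.1 factors are known for their part in myeloid gene expression. A TATA box (TATAAA, 12.4% of promoters) lay 30 bases before the RefSeq start of *S100a8*, which GENCODE places inside the first exon, and 31 bases before that of *S100a4*. The E-box CACGTG (6.02% of promoters) was found at *S100a11* only. The AP-1 motif TGANTCA (6.75%) was found at *S100a11* and *S100a16*, and the GC box GGGCGG (32.7%) at *S100a9*, *S100a11* and *S100a16*. The NF-kB motif (1.41%) was found at none of these starts. None of the matches overlapped another in these windows, and no binding was measured.

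Levels of the 10 genes spanned a wide range. Per kb of annotated exon, the order of the mean over the 5 mice was *S100a1* (287 normalized CPM per kb), *S100a11* (212), *S100a10* (49.1), *S100a16* (29.2), *S100a13* (22.3), *S100a6* (11.8), *S100a4* (6.50), *S100a14* (4.75), *S100a9* (4.65) and *S100a8* (1.69). Within wildtype mice, each gene lay apart from its neighbour in that order, and *S100a14* and *S100a9* stood in the opposite order, both values of *S100a9* being above both of *S100a14*. Within *Fnip1* null mice, ranges of neighbours overlapped for *S100a16* and *S100a13*, *S100a6* and *S100a4*, *S100a4* and *S100a14*, and *S100a14* and *S100a9*. In the wildtype cortex, *S100a14* (0.398 CPM per kb) and *S100a9* (0.572) were far below *S100a4* (4.61) on this per-length scale. In the null cortex the means of *S100a14* (7.65), *S100a9* (7.37) and *S100a4* (7.75) were close to each other.

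**Figure D1:**
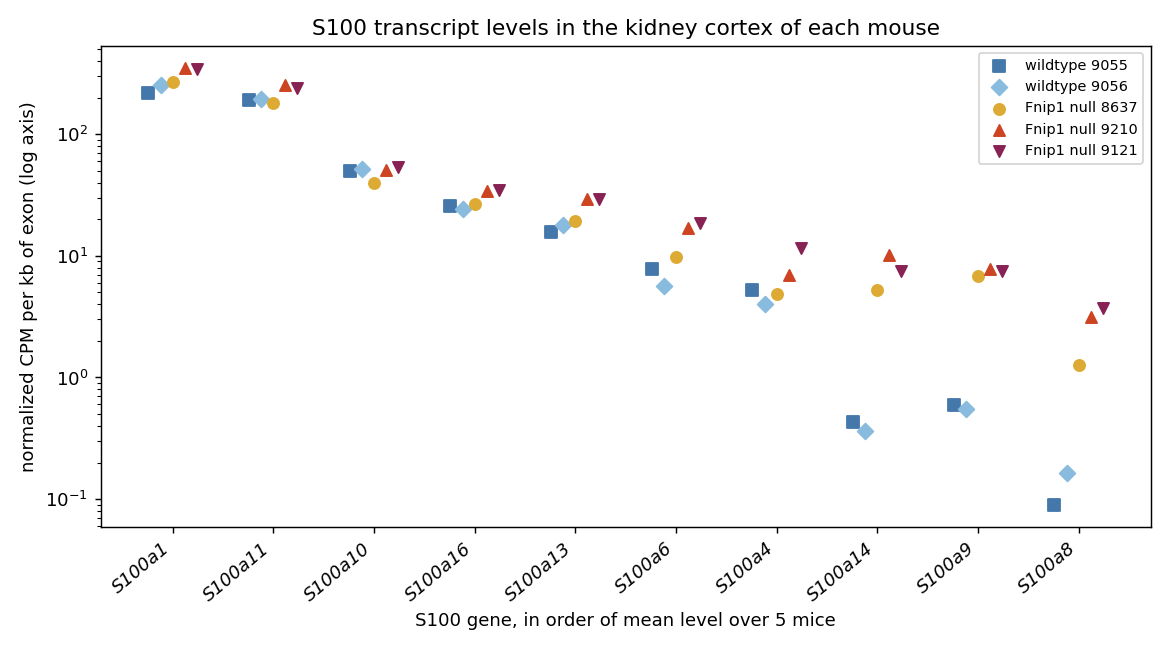
Level of each S100 gene in each of the 5 mice, in normalized CPM per kb of annotated exon on a log axis, with genes in order of their mean. Wildtype and *Fnip1* null points are mixed for *S100a10* and *S100a11*, and separate widely for *S100a14*, *S100a9* and *S100a8*, the genes with the lowest wildtype levels.

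The genotypes were compared over 13874 genes by the quasi-likelihood method of edgeR, and a gene was called when it passed an FDR of 5% and changed 2-fold or more. *S100a9* and *S100a14* rose in *Fnip1* null cortex by this rule, 2 of the 10 genes, where 0.404% of all genes tested were called higher and 0.533% in either direction. No S100 gene was called lower. With *S100a6* and *S100a8*, 4 of the 10 were at least 2-fold higher by their estimates, against 5.74% of all genes. All 3 null mice lay above both wildtype mice for 7 of the 10 genes, against 22.9% of all genes tested, and for none did all null mice lie below. The log2 fold change was above 0 for 9 of the 10 genes, against 50.5% of all genes, with a median of 0.69 against a median of 0.003 for all genes tested. The genes were listed with results of these mice known, so these counts describe the list and are not independent evidence of its direction. Exact permutation of 5 mice split 3 to 2 has a smallest p of 0.1. Whole cortex was read, so more cells of a type and more RNA per cell cannot be told apart for any of these genes.

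*S100a14* belongs to the S100 proteins found in epithelia, and its product has been linked to growth and movement of epithelial cells. Its counts were 12 and 11 in wildtype mice 9055 and 9056, and 154, 297 and 244 in null mice 8637, 9210 and 9121, which gave 0.746 and 0.629 CPM against 9.08, 17.7 and 12.9 CPM. The groups did not overlap, and the lowest null mouse was 12.2 times the highest wildtype mouse. Mean levels were 0.687 ± 0.0823 CPM (SD, n = 2) in wildtype and 13.2 ± 4.30 CPM (SD, n = 3) in null cortex, a ratio of 19.2 with a counting interval of 12.7 to 30.6 that covers counting error only. The log2 fold change was 4.25 (SE 0.393, 95% interval 3.30 to 5.20, adjusted p = 0.0313). The genes of the table on either side of it did not share this size, with log2 fold changes of 0.63 for *S100a13*, 2274 bases before it, and 0.34 for *S100a16*, 8416 bases after it.

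*S100a9* encodes the larger chain of calprotectin, which binds zinc and manganese as well as calcium and is abundant in neutrophils. It had 5 counts in each wildtype mouse and 60, 69 and 74 in null mice 8637, 9210 and 9121, so that wildtype levels of 0.311 and 0.286 CPM stood against 3.54, 4.10 and 3.91 CPM. The null mice lay close together, and the lowest was 11.4 times the highest wildtype mouse. The log2 fold change was 3.66 (SE 0.315, 95% interval 2.90 to 4.42, adjusted p = 0.0313), and means were 0.298 ± 0.0174 CPM (SD, n = 2) and 3.85 ± 0.288 CPM (SD, n = 3). The counts of wildtype mice are small, and their 95% Poisson intervals reached from 0.0929 to 0.725 CPM.

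*S100a8*, the other chain of calprotectin, had 1 and 2 counts in wildtype mice and 15, 37 and 49 in null mice 8637, 9210 and 9121 (0.0621 and 0.114 against 0.884, 2.20 and 2.59 CPM). The wildtype values are under the level of 3 counts, and all null mice lay above it. The ratio of the summed counts, 101 against 3, was 21.4 after scaling, with an exact counting interval of 7.13 to 106. The log2 fold change of 4.30 (SE 0.764) had an adjusted p of 0.0653, so *S100a8* did not pass the quasi-likelihood test, while it passed the exact test (adjusted p = 2.4e-05), the likelihood ratio test (1.1e-05) and DESeq2 (0.00116). Those tests called 3.06%, 3.44% and 2.61% of all genes higher. It also passed the quasi-likelihood test without the count filter (adjusted p = 0.0468, with 0.605% of genes called higher) and at an FDR of 10% (1.87%). Per kb of exon, *S100a8* was at 0.188, 0.403 and 0.498 of the level of *S100a9* in null mice 8637, 9210 and 9121, so the chains were not at a fixed ratio to each other over the 3 null mice.

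**Figure D2:**
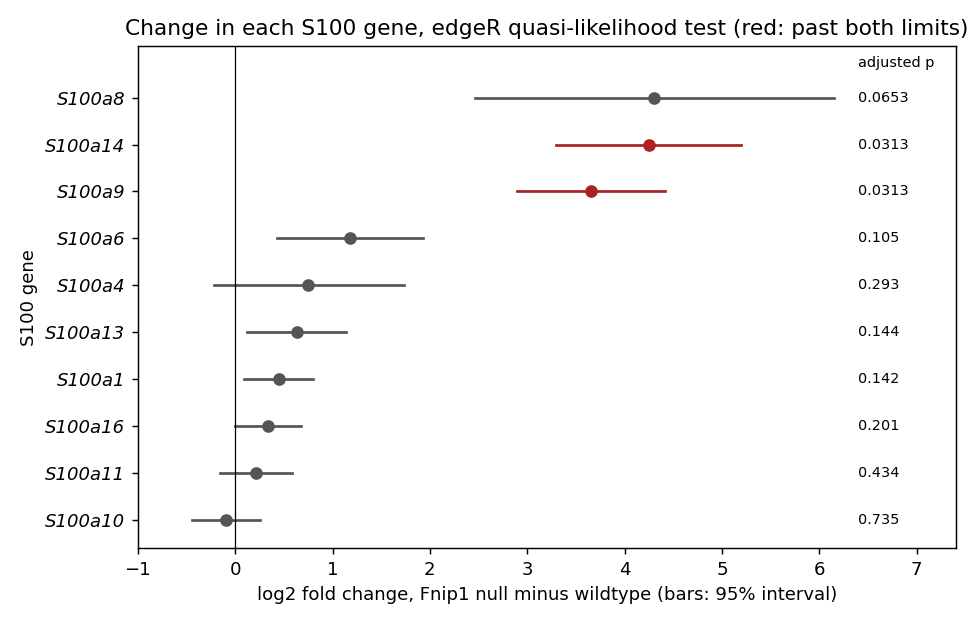
Log2 fold change of each S100 gene (*Fnip1* null minus wildtype) with its 95% interval and the adjusted p of edgeR's quasi-likelihood test beside it. *S100a14* (4.25) and *S100a9* (3.66), in red, passed both the FDR and the fold limit, and *S100a8* had the largest estimate (4.30) and the widest interval.

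*S100a6* (calcyclin) and *S100a4* (metastasin) are neighbours in the cluster. Calcyclin is made by epithelial and stromal cells and binds annexins and the calcyclin-binding protein, and S100a4 binds non-muscle myosin and is made by fibroblasts, macrophages and T cells. *S100a6* was at 10.6 and 7.78 CPM in wildtype mice 9055 and 9056 and at 13.3, 23.3 and 25.6 CPM in null mice 8637, 9210 and 9121. The groups did not overlap, null mouse 8637 lay 1.26 times above the highest wildtype mouse, and the other null mice were higher. The log2 fold change was 1.18 (SE 0.311) with an adjusted p of 0.105. It passed the exact test (adjusted p = 0.0116), the likelihood ratio test (0.0103) and DESeq2 (0.00769). *S100a4* was at 3.04 and 2.35 CPM in wildtype and 2.83, 4.04 and 6.71 CPM in null mice, in the same order. Null mouse 8637 lay between the wildtype mice, and the log2 fold change of 0.75 (SE 0.404, adjusted p = 0.293) was 0.35 without null mouse 9121.

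*S100a1*, which in muscle binds the ryanodine receptor and SERCA pump, had the highest mean level per kb of the 10 genes. It was at 151 and 175 CPM in wildtype and 187, 243 and 237 CPM in null mice, without overlap, with a log2 fold change of 0.45 (SE 0.148, adjusted p = 0.142). *S100a13*, which takes part in the release of FGF1 and IL-1 alpha from cells, was at 11.2 and 12.7 CPM in wildtype and 13.9, 20.8 and 20.9 CPM in null mice (log2 fold change 0.63, SE 0.210, adjusted p = 0.144). In these divergent genes, null mouse 8637 was the null mouse nearest to wildtype. This was not particular to them, since 8637 had the lowest level of the null mice in every S100 gene listed. *S100a16*, a widely expressed member, was at 41.9 and 39.5 CPM in wildtype and 42.8, 55.3 and 56.4 CPM in null mice, where the lowest null mouse exceeded the highest wildtype mouse by a ratio of only 1.02. Its log2 fold change was 0.34 (SE 0.141, adjusted p = 0.201).

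*S100a10* (p11) does not need calcium to hold its partner annexin A2 and brings plasminogen and several channels to the cell surface. It was at 60.8 and 62.7 CPM in wildtype and 47.7, 61.1 and 65.6 CPM in null mice, and the groups overlapped. Its log2 fold change was -0.09 with a 95% interval of -0.44 to 0.26 (adjusted p = 0.735), and its sign turned under scaling by library size only (0.084) and without null mouse 8637 (0.041). *S100a11* (calgizzarin), a partner of annexin A1, was at 98.3 and 99.4 CPM in wildtype and 91.9, 130 and 121 CPM in null mice, again with overlap, and its log2 fold change was 0.21 (95% interval -0.16 to 0.58, adjusted p = 0.434). The intervals of both genes leave out a 2-fold change in either direction.

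Each mouse was left out in turn. Without either wildtype mouse a single control remains, and the test then assumes that it varies like the null mice, so the p-values of those fits say little. The log2 fold change of *S100a14* stayed between 3.99 and 4.47 and that of *S100a9* between 3.60 and 3.72 over the 5 fits that each left out a mouse. Both genes were called without null mouse 8637 and without null mouse 9121. Neither was called without wildtype mouse 9055 (adjusted p = 0.212 for both), wildtype mouse 9056 (0.505 for both) or null mouse 9210 (0.126 for *S100a14* and 0.127 for *S100a9*), and in those fits no gene of the whole table was called by the quasi-likelihood test, with 2460, 1225 and 2048 of 13874 genes at an unadjusted p under 0.05. Without null mouse 8637, *S100a6* (log2 fold change 1.42, adjusted p = 0.00866) and *S100a8* (4.64, adjusted p = 0.00695) were called as well, in a fit that called 4.53% of all genes higher. In the same fit *S100a1* (0.56, adjusted p = 0.0181), *S100a13* (0.80, 0.0138), *S100a16* (0.46, 0.0227) and *S100a11* (0.35, 0.0369) passed the FDR but not the 2-fold limit, where 9.89% of all genes tested were higher at that FDR. Without null mouse 9121, the mouse with female-type sex-linked transcripts, log2 fold changes were 4.0 for *S100a8*, 3.65 for *S100a9*, 4.27 for *S100a14* and 1.0 for *S100a6*.

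**Figure D3:**
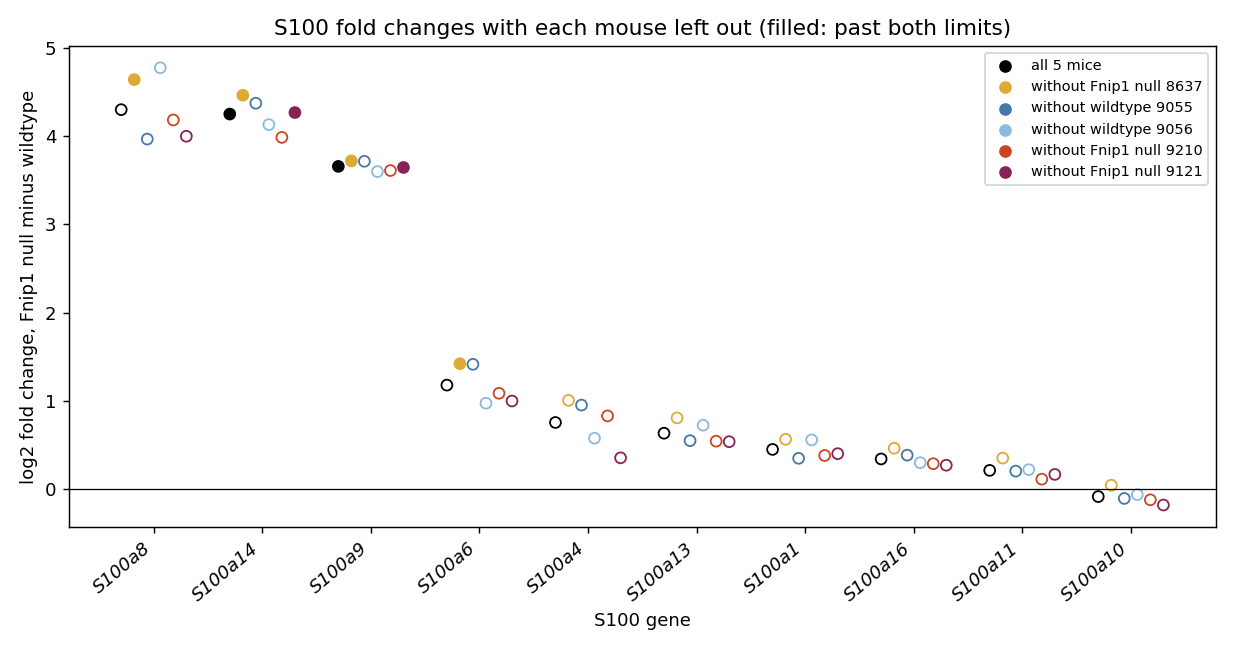
Log2 fold change of each S100 gene with all 5 mice (black) and with each mouse left out (colours), where filled points passed the FDR of 5% and the 2-fold limit. The estimates of *S100a8*, *S100a14* and *S100a9* stayed above 3.5 in each fit, and filled points for *S100a9* and *S100a14* are those with all mice, without 8637 and without 9121.

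Marker levels are given here for the cells that could carry these transcripts. Of the 12 neutrophil markers with a row in the table, only 2, *Csf3r* and *Cxcr2*, reached the count filter and were tested. All null mice lay above both wildtype mice for 1 of those 2, *Csf3r*, as they did for 22.9% of all genes tested. Over all 12 rows this held for 5. That share cannot be set against these 5, since 6 of the 12 rows had at most 3 counts in every mouse. Those 5 include *Mmp8* with 0 and 0 against 2, 1 and 2 counts and *Chil3* with 2 and 3 against 4, 3 and 7 counts. The list summed to between 1.60 and 2.36 CPM in wildtype and between 4.48 and 6.07 CPM in null mice. The granule genes *Mpo*, *Elane* and *Camp* were at 0 in every mouse, and *Ngp* was at no more than 1 count per mouse. *Csf3r*, the G-CSF receptor, was at 0.621 and 0.744 CPM in wildtype and 1.83, 2.32 and 3.22 CPM in null mice (log2 fold change 1.84, adjusted p = 0.0771). *Retnlg*, a transcript of mature neutrophils, had 0 counts in both wildtype mice and 7, 7 and 11 in null mice. *Cxcr2* overlapped between the groups. The part of these cells in the levels of *S100a8* and *S100a9* was not tested.

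Of 15 monocyte and macrophage markers, 12 had all null mice above both wildtype mice, where 22.9% of all genes tested did. Among them were *Adgre1* (3.67 and 3.26 against 7.37, 8.98 and 13.7 CPM) and *Itgax* (2.11 and 1.49 against 4.83, 5.05 and 5.76 CPM). None of the markers passed the test, where 0.533% of all genes tested did in either direction. *Csf1r* went the other way, at 72.4 and 68.4 against 38.2, 36.4 and 63.9 CPM, and with it the list summed to between 117 and 141 CPM in wildtype and between 135 and 284 CPM in null mice. T cell markers summed to 2.17 to 4.97 against 5.95 to 14.4 CPM. Of the blood markers, *Alas2* made up nearly the whole sum, at 16.1 and 11.3 against 23.3, 17.7 and 16.3 CPM, while *Hba-a2* was lower in all null mice (8 and 6 against 5, 1 and 4 counts) and *Hba-a1* and *Hbb-bt* were at 0. Globin counts this low, with reads of more than 1 alignment left out, cannot show how much blood the tissue held. B cell markers summed to 0.972 to 1.18 CPM in wildtype and to no more than 0.106 CPM in null mice. In each of the macrophage and T cell lists null mouse 9121 had the highest sum. Among the S100 genes it was highest for *S100a4*, *S100a6*, *S100a8*, *S100a10* and *S100a16*, and barely for *S100a13* (20.9 against 20.8 CPM in null mouse 9210). *S100a1*, *S100a11* and *S100a14* were highest in null mouse 9210, and *S100a9* was at similar levels in all 3 null mice. Null mouse 9121 also had the highest neutrophil, endothelial, medulla and urothelial sums, so this was not particular to macrophages and T cells. Collecting duct, podocyte, injured tubule, fibroblast and adipocyte sums were highest in null mouse 9210. The part of any of these cells in the S100 levels was not tested.

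Among epithelial and stromal lists, injured tubule markers summed to 1150 to 1250 CPM in wildtype and 2390 to 3390 CPM in null mice, with *Spp1* (osteopontin) called higher (log2 fold change 1.60, adjusted p = 0.0403). *Spp1* made up most of these sums, which without it were 360 and 435 CPM in wildtype and 484, 613 and 550 CPM in null mice. All null mice lay above both wildtype mice for 5 of the 10 markers and below for 0, against 22.9% and 23% of all genes tested. The other 5 markers overlapped between the groups. Proximal tubule markers, the largest sum, went the other way in sum. Of these 8 genes, 4 were lower in all null mice and 2 (*Slc5a2* and *Slc5a12*) were higher, against 23% and 22.9% of all genes tested. Collecting duct principal cell markers summed to 420 to 427 against 506 to 680 CPM. Of these 6 genes, 4 were higher in all null mice, against 22.9% of all genes tested. *Avpr2* was lower in all null mice (21.4 and 20.1 against 11.5, 15.5 and 18.0 CPM). Fibroblast markers summed to 170 to 296 against 319 to 596 CPM, endothelial markers to 233 to 381 against 393 to 523 CPM, and podocyte markers to 357 to 361 against 642 to 754 CPM. Urothelial markers summed to 7.21 and 1.03 CPM in wildtype mice 9055 and 9056 and to 4.77, 7.91 and 26.8 CPM in null mice 8637, 9210 and 9121. Adipocyte markers stood at 36.7 and 36.1 CPM in wildtype and 54.3, 357 and 167 CPM in null mice. The part of these cell types in the S100 levels, that of *S100a14* included, was not tested.

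**Figure D4:**
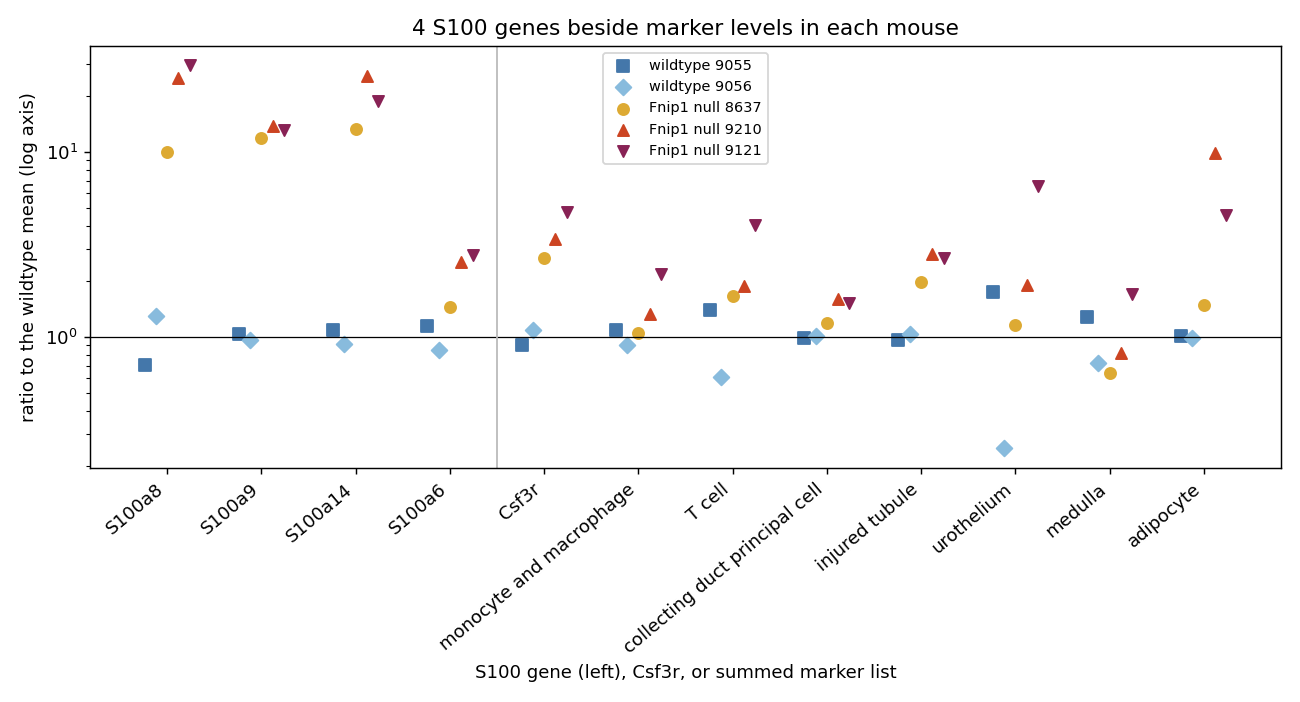
*S100a8*, *S100a9*, *S100a14* and *S100a6* (left of the line) beside *Csf3r* and summed marker lists (right of it), each as the ratio of every mouse to the wildtype mean on a log axis. *S100a9* and *S100a14* are more than 10 times the wildtype mean in all 3 null mice. The plotted marker sums lie nearer to 1, although the adipocyte sums of null mice 9210 and 9121 and the urothelial sum of 9121 stand well above it. *S100a6* lies among the marker sums, and the neutrophil list is not plotted as a sum.

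The receptors through which extracellular S100 proteins act were examined with their adaptors as 8 genes, of which 7 were tested. None passed, where 0.533% of all genes tested did in either direction. All null mice lay above both wildtype mice for 3 of the 7 and below for 1, against 22.9% and 23% of all genes, and *Ly96*, *Myd88* and *Bsg* overlapped. The median log2 fold change was 0.26, against 0.003 for all genes. *Cd36*, a fatty acid scavenger receptor that also takes up S100a8 and S100a9 with bound lipid, was at 754 and 795 CPM in wildtype and 410, 151 and 145 CPM in null mice (log2 fold change -1.72, adjusted p = 0.105), and it was called lower without null mouse 8637 (-2.39, adjusted p = 0.0011). *Mcam*, an adhesion receptor for S100a8 and S100a9, was at 16 and 9.44 against 18.7, 27.5 and 20.7 CPM (log2 fold change 0.81, adjusted p = 0.144). *Tlr4* was at 3.04 and 1.49 against 3.18, 5.05 and 5.97 CPM (log2 fold change 1.07, adjusted p = 0.181). *Cd14* was at 2.42 and 2.17 against 3.18, 4.46 and 7.18 CPM (log2 fold change 1.11, adjusted p = 0.154), and it was called higher without null mouse 8637 (1.35, adjusted p = 0.0333). *Ager*, which encodes RAGE, was at 0.497 and 0.343 CPM in wildtype and at 0.53, 1.25 and 1.43 CPM in null mice and was not tested. Of 12 genes that respond to inflammatory signalling 6 were tested, and their log2 fold changes lay between 0.36 and 1.48. None of the 6 passed, against the same 0.533% of all genes tested. *Nfkb1* had a log2 fold change of 0.36 (adjusted p = 0.122) and *Nfkbia* of 0.68 (adjusted p = 0.176). *Il6* had no count in 4 of the mice.

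Of the 12 intracellular partners tested, none passed, where 0.533% of all genes tested did in either direction. The log2 fold change was above 0 for 10 of them, against 50.5% of all genes, with a median of 0.30 against 0.003. All null mice lay above both wildtype mice for 6 of the 12, against 22.9% of all genes. *Anxa6*, an annexin bound by several S100 proteins, was at 65.4 and 57.9 CPM in wildtype and 97.1, 124 and 142 CPM in null mice (log2 fold change 0.98, adjusted p = 0.0646). *Anxa1*, the partner of S100a11, was at 8.95 and 6.58 against 11.5, 17.1 and 14.2 CPM (log2 fold change 0.88, adjusted p = 0.103). Neither gene overlapped between the groups, and without null mouse 8637 both were called (log2 fold change 1.12, adjusted p = 0.00597 for *Anxa6*, and 1.02, 0.0244 for *Anxa1*). For *Anxa2*, the partner of S100a10, the groups overlapped, with a log2 fold change of 0.51 (adjusted p = 0.284).

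Other EF-hand genes, such as calmodulins and centrins, served to set the S100 genes beside calcium-binding proteins in general. Of 14 such genes 13 were tested, and their median log2 fold change was -0.01 over a range of -0.57 to 1.83. None passed, where 0.533% of all genes tested did in either direction. *Calml4*, a calmodulin-like gene of brush border epithelia, was at 227 and 244 CPM in wildtype and 175, 159 and 142 CPM in null mice (log2 fold change -0.57, adjusted p = 0.0747). *Calm2*, 1 of the calmodulin genes, was at 144 and 142 against 169, 205 and 201 CPM (log2 fold change 0.42, adjusted p = 0.110). All null mice lay above wildtype for 4 of the 13 genes and below for 2, against 22.9% and 23% of all genes.

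The chromosomal neighbourhood was followed 500 kb beyond the S100 genes and through the interval between the clusters. Of 83 other genes there with a row in the table, 22 were tested, with a median log2 fold change of 0.03. None passed, where 0.533% of all genes tested did in either direction. All null mice lay above both wildtype mice for 7 of the 22 and below for 4, against 22.9% and 23% of all genes. *Npr1*, the receptor of atrial natriuretic peptide, whose start lies 60.4 kb before that of *S100a1* on the map, was at 28.1 and 23.2 CPM in wildtype and 37.0, 42.5 and 44.3 CPM in null mice (log2 fold change 0.69, adjusted p = 0.0709). *Smcp*, a sperm mitochondrial gene in the interval, was at 4.16 and 2.86 against 1.30, 0.832 and 0.317 CPM (log2 fold change -2.11, adjusted p = 0.0953), and it was called lower without null mouse 8637 (-2.61, adjusted p = 0.0209). *Chtop*, *Snapin* and *Ilf2*, the tested genes nearest to *S100a1* outside the cluster, had log2 fold changes of 0.01, 0.18 and 0.11.

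**Figure D5:**
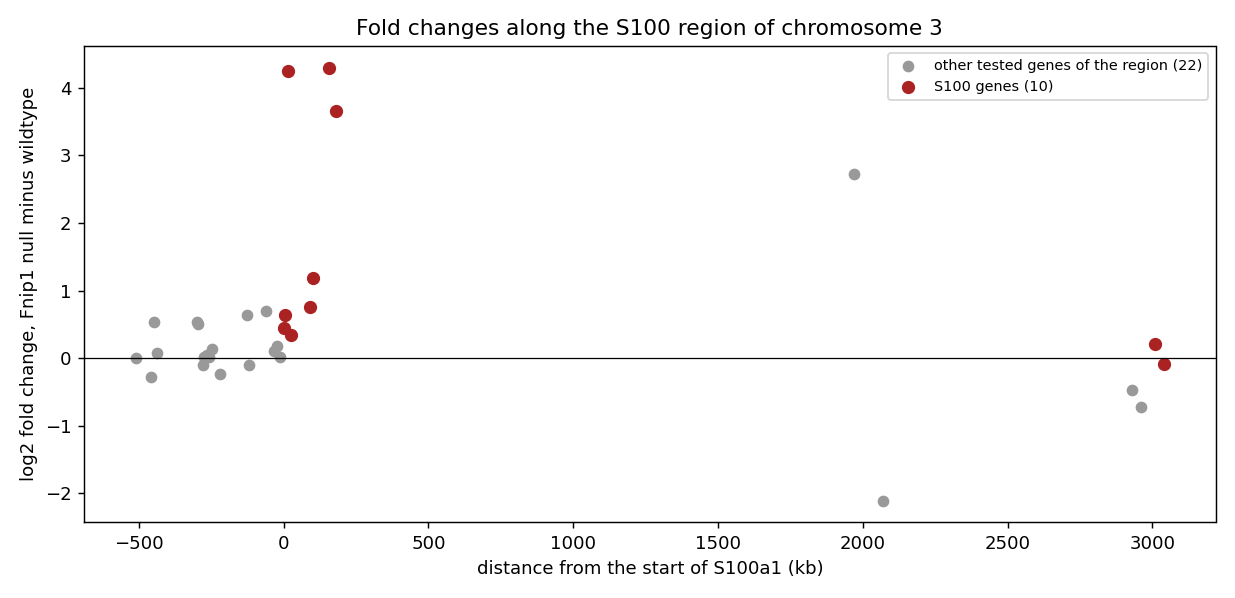
Log2 fold change (*Fnip1* null minus wildtype) of the 10 S100 genes (red) and the 22 other tested genes of the region (grey) by distance from the start of *S100a1* in kb. The large S100 values (4.25, 4.30 and 3.66) sit among S100 genes between 0.34 and 1.18, and most grey points before the cluster lie near 0.

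Genes whose profile over the 5 mice was nearest to that of an S100 gene were sought among 13272 genes with a mean of at least 1 CPM, by the root-mean-square difference in centred log2 CPM. Nearest to *S100a9* were *Rnase1*, a secreted ribonuclease (difference 0.138, log2 fold change 5.0), *Ugt1a10*, a glucuronosyltransferase (0.222, 2.75), and *Adgrf1*, an adhesion receptor (0.229, 2.56). A pseudocount of 0.5 CPM was added, and wildtype levels of *S100a9* (0.311 and 0.286 CPM) and *Rnase1* (0.0621 and 0.0572 CPM) lie under it. Genes with unlike fold changes can therefore stand near each other on this measure. For *S100a14* they were *Atp12a*, a proton and potassium pump (0.332, log2 fold change 4.06), *Cyp4a14*, a fatty acid hydroxylase (0.403, 3.45), and again *Ugt1a10* (0.465, 2.75). For *S100a8* they were *Trf* (transferrin, 0.104), *Apoc1* (0.183) and *Apoe* (0.192), the last a pair of apolipoprotein genes, with log2 fold changes of 1.98, 2.75 and 1.95, where the pseudocount of 0.5 CPM draws in the low values of *S100a8*. For *S100a6* they were *Stom* (stomatin, 0.0467), *P2rx7*, an ATP-gated channel (0.0680), and *Cd53*, a leukocyte tetraspanin (0.0786), with log2 fold changes of 1.15, 1.25 and 1.44. Within the family, the nearest pair was *S100a11* and *S100a16* (0.0853), followed by the divergent *S100a1* and *S100a13* (0.108).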

How the data were processed

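RNA of frozen cortical kidney tissue was sequenced as paired-end 50 base reads by the authors, who filtered reads for quality, aligned them to mm10 with TopHat 2.1.0 and counted them per gene with HTSeq 0.6.1 (versions per the submitters' processing notes). The deposited values are these raw counts, and HTSeq leaves out reads with more than 1 alignment (28.3% to 31.4% of its total). No source used here states strand-specific counting. The 5 rows of HTSeq totals were left out.

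Genes with at least 10 counts in at least 3 of the 5 mice (13874) were tested in edgeR 4.0.16 under R 4.3.3 with TMM normalization and the quasi-likelihood test, whose default in that version is the legacy method, with Benjamini-Hochberg adjustment over all genes tested. No 2 libraries differed by as little as sampling noise. Intervals for counts are exact and cover counting error only, at 95%. On simulated data the test recovered 180 of 200 changed genes and called 11 unchanged genes, of 13736 tested. Alternatives were other tests (DESeq2 1.42.0 among them), scalings, filters and thresholds, and leaving out each mouse. The method without the legacy setting was added after seeing the data.

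The S100 genes and all lists were chosen with earlier results of these data known. All S100 genes are named, with the listed genes past the threshold or, where none passed, those with the 2 smallest adjusted p, and the 3 genes nearest in profile to the 4 S100 genes with the largest changes; further genes of the lists were named after their values were seen.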

Additional observations from a re-analysis of the deposited data

How the results depend on the processing

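Of the 10 S100 genes, 2 were called with all mice, and 4 (adding *S100a6* and *S100a8*) by DESeq2 and by the exact and likelihood ratio tests, and 3 (adding *S100a8*) without the count filter and at an FDR of 10%. Leaving out 1 mouse gave between 0 (without 9055, 9056 or 9210) and 4 (without 8637), where the lone control left without 9055 or 9056 is assumed to vary like the null mice. Over all genes, 56 were called higher and 18 lower, against 424 and 146 with the exact test, 477 and 151 with the likelihood ratio test, 362 and 120 with DESeq2, 108 and 37 without the count filter, 259 and 87 at an FDR of 10%, and 629 and 273 without 8637. Scaling by library size only gave 67 higher and 10 lower and moved the median log2 fold change of all genes to 0.167. Under it *S100a10* was at 0.084, below that median, against -0.088 with TMM, and it ranged from -0.18 (without 9121) to 0.041 (without 8637); the cause was not tested.

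Receptors with 1 gene past the threshold under the exact and likelihood ratio tests (*Cd36*, lower) ranged from 0 to 2 when a mouse was left out, partners from 0 to 2, inflammatory genes from 0 to 1, EF-hand genes from 0 to 1 (and 1, *Calml3*, under the exact and likelihood ratio tests) and chromosome 3 neighbours from 0 to 1 (and 1, *Smcp*, under those tests, DESeq2 and an FDR of 10%). The planned legacy method is the default, and the newer method called 73 genes, 2 of them S100 genes. No paired analysis was possible because the groups share no replicate number. With 1 to 12 counts in wildtype mice, depth limits the fold changes of *S100a8*, *S100a9* and *S100a14*.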
